A study of Mus musculus with 12 samples.

Results

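The E2 response that remained under ESR1 blockade was read in 6 of the 12 RNA-Seq samples of hernia-associated fibroblasts (HAFs): 3 samples treated with 10 nM estradiol (E2) plus 100 nM fulvestrant and 3 treated with 100 nM fulvestrant alone, each for 48 h. All 13233 genes in the deposited table were compared, and same-numbered replicates of the groups were set against each other. The other 6 samples, 3 with 10 nM E2 and 3 with vehicle for the same time, gave the size of the E2 response without the antagonist, and they share no sample with the first comparison. All 4 groups were primary skeletal muscle fibroblasts cultured from the lower abdominal muscle (LAM) of Aromhum mice, so every group, the controls included, carried the human aromatase transgene that turns testosterone into E2 in these animals. The cells were enriched by preplating, which selects for adherent fibroblasts, kept in medium with little charcoal-stripped serum, and given fulvestrant or its solvent 3 h ahead of E2 or its solvent. No source used here says whether replicates 1, 2 and 3 came from separate mice, cultures or days, so p-values measure the spread between these samples, which may be technical.

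E2 enters the cell and binds estrogen receptor alpha, encoded by Esr1, which then sits on DNA at estrogen response elements or through other factors and recruits coactivators to raise or lower nearby genes. Fulvestrant competes with E2 for the ligand pocket of the receptor, does not permit the active fold, and marks the receptor for degradation. Estrogens also act through other routes, such as membrane receptors, so adding E2 to cells that already hold fulvestrant asks how much of the response needs the blocked receptor.

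Between 18827792 and 36756037 reads fell on listed genes in the 6 fulvestrant-treated samples, and fulvestrant replicate 3 had the fewest. Replicate 1 stood apart from replicates 2 and 3 in both groups: the first principal component of the 6 samples held 87.7% of the variance and placed both replicate 1 samples on one side. Counts and medians are therefore also given without replicate 1. The 7 fibroblast markers (Pdgfra, Col1a1, Col1a2, Dcn, Lum, Thy1 and Col3a1) were all listed, with summed levels of 353356 to 367824 normalized counts with E2 plus fulvestrant and 321402 to 385490 with fulvestrant. Of the endothelial markers only Tek was listed, of the leukocyte markers only Cd68 and Lyz2, and of the pericyte markers Cspg4, Mcam and Myh11. No myogenic, adipocyte or mesothelial marker was in the table. In bulk RNA, fewer cells of a type and less RNA per cell cannot be told apart.

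Adding E2 on top of fulvestrant called no gene. The threshold for a call was a fold change over 1.2 together with a p-value, adjusted by Benjamini-Hochberg over all genes, under 0.05, from limma on log2(normalized count + 1). Of 13233 genes, 0 were higher and 0 were lower (0% called), and limma gave 516 genes (3.9%) an unadjusted p-value under 0.05, 278 of them higher with E2 (2.1%) and 238 lower (1.8%). The smallest limma adjusted p-value was 0.427. Without fulvestrant the same test called 43 genes higher with E2 (0.325%) and 14 lower (0.106%), 0.431% in either direction. An unadjusted p-value under 0.05 was found there in 1917 genes (14.5%), 7.79% of all genes being higher and 6.7% lower, and 53.7% of all genes had a positive effect. The empty count did not hold when replicate 1 was left out of both groups, where 42 genes were called higher and 105 lower. That fit has 1 residual degree of freedom per gene. Some calls had opposite signs in replicates 2 and 3, such as mt-Rnr1 (-0.87 and 0.09) and Rps12-ps9 (0.24 and -1.23), both chosen after their values were seen. Whether replicate 1 or the variance estimate set the empty count was not tested. Leaving out replicate 2 gave 0 higher and 1 lower, and leaving out replicate 3 gave 0 and 0. The E2 counts without fulvestrant moved as well, to 23, 165 and 6 higher and 1, 114 and 0 lower without replicates 1, 2 and 3. They were 0 and 0 with no replicate block, 0 and 0 with no variance trend, and 10 and 0 with all 12 samples in one fit, so the 43 and 14 genes used below depend on the fit.

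The precision was nearly the same in both comparisons, with a median standard error of 0.0733 on the log2 scale under fulvestrant and 0.0753 without it. The 95% interval of the E2 effect under fulvestrant lay inside 1.2-fold in both directions for 7931 genes (59.9%), inside 1.5-fold for 11682 (88.3%) and inside 2-fold for 13040 (98.5%). Without fulvestrant the shares were 47.8%, 83.5% and 96.5%. An E2 effect of 2-fold or more thus lay outside the interval for nearly every listed gene in both comparisons. The spread of the log2 fold changes over all genes was 0.13 (SD) under fulvestrant and 0.189 without it. Differences in separate replicate pairs had a correlation across the 13233 genes of -0.05, -0.09 and 0.14 under fulvestrant, against 0.16, 0.21 and 0.33 without it. Genes are not independent replicates, and the values describe only how far the E2 effect recurred from pair to pair.

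Pgr, the progesterone receptor gene and a standard readout of ESR1 activity, had the largest E2 effect of the genes called without the antagonist and is shown first for that reason. Pgr (ENSMUSG00000031870, chromosome 9 of GRCm38, 8899833 to 8968611) had 25.4, 85.3 and 104.4 normalized counts in vehicle replicates 1, 2 and 3, and 145.0, 267.5 and 304.0 with E2. With fulvestrant alone it had 13.0, 21.5 and 16.2, and with E2 plus fulvestrant 14.8, 28.4 and 27.0. Every fulvestrant-treated sample thus lay below its same-numbered vehicle sample, and the 2 fulvestrant groups overlapped. The log2 fold change with E2 was 1.88 (standard error 0.20, limma adjusted p = 0.0143) without fulvestrant and 0.42 (standard error 0.28, unadjusted p = 0.166, limma adjusted p = 0.998) with it. All 3 pairs were higher with E2 under fulvestrant, and the 95% interval, -0.21 to 1.04, held both 0 and 2-fold, at 13.0 to 28.4 normalized counts in these samples.

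**Figure D1:**
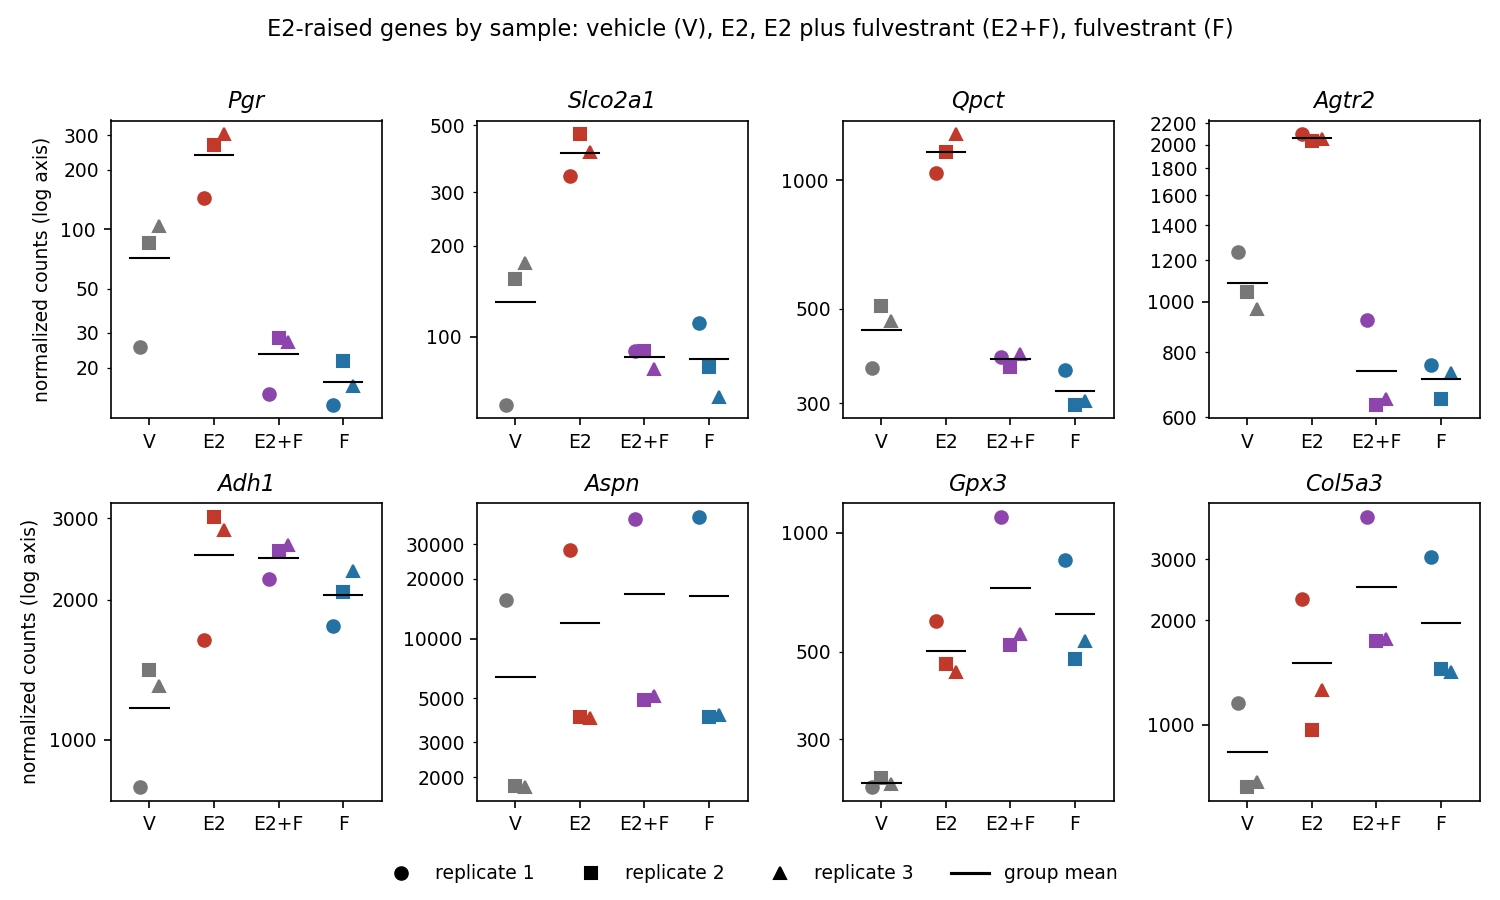
Normalized counts (log axis) of 8 genes that E2 raised, in every sample of the 4 groups, with symbols for replicates 1 to 3 and a line at the group mean. Pgr, Slco2a1, Qpct and Agtr2 had means below the vehicle mean in both fulvestrant groups, while Adh1, Aspn, Gpx3 and Col5a3 stood above their vehicle mean in both.

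Slco2a1, a prostaglandin transporter (chromosome 9, 102988712 to 103096002), had 339.3, 468.2 and 409.8 normalized counts with E2 against 59.6, 155.7 and 175.4 with vehicle. Under fulvestrant it had 89.6, 89.8 and 78.2 with E2 and 110.8, 79.4 and 63.2 without. The latter groups overlapped, and the log2 fold change went from 1.76 to 0.06 (95% interval -0.33 to 0.45). Agtr2, the type 2 angiotensin receptor (chromosome X, 21484544 to 21489164), had 2096, 2035 and 2049 normalized counts with E2 against 1243, 1042 and 965.5 with vehicle. With E2 plus fulvestrant it had 922.8, 634.2 and 650.2, which overlapped the 757.1, 649.7 and 728.2 of fulvestrant alone, a log2 fold change of 0.03 (95% interval -0.17 to 0.23). Phex, an endopeptidase of phosphate metabolism, went from a log2 fold change of 1.36 to 0.04 and Akr1c14, a hydroxysteroid dehydrogenase of a family of close paralogs, from 1.13 to -0.19, with pair differences of -0.54, 0.44 and -0.48. Gm18857 overlaps 7.2% of the exon bases of Akr1c14, so its level is uncertain.

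Qpct, the glutaminyl cyclase that forms pyroglutamate at peptide ends (chromosome 17, 79051906 to 79090378), had 385.1, 364.8 and 391.2 normalized counts with E2 plus fulvestrant and 358.4, 297.6 and 303.3 with fulvestrant, and the groups did not overlap. The log2 fold change was 0.25 (standard error 0.09, unadjusted p = 0.0230, limma adjusted p = 0.998) against 1.39 without fulvestrant, where E2 samples had 1041, 1162 and 1283. Of the 43 genes that E2 raised, 3 had every sample with E2 plus fulvestrant above every sample with fulvestrant, namely Qpct, Csrp2 and Mrgprf (1.19% of all genes did so, and 2.42% had groups apart in either direction), and none lay wholly below. Without fulvestrant 19 of the 43 had every E2 sample above every vehicle sample, as did 3.05% of all genes. Csrp2, a LIM protein of muscle and fibroblasts, had 156.6, 156.7 and 152.0 normalized counts with E2 plus fulvestrant against 135.8, 109.1 and 126.5 with fulvestrant, and 428.2 to 471.5 with E2 alone. Mrgprf, an orphan receptor of the Mas family, had 488.5, 579.3 and 590.9 against 423.6, 453.0 and 481.7. Csrp2 and Mrgprf were named after their values were seen.

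Adh1, an alcohol dehydrogenase that also oxidizes retinol (ENSMUSG00000074207, chromosome 3, 138260991 to 138290698), had the smallest p-value of all genes for E2 against vehicle. It had 1641, 3025 and 2832 normalized counts with E2 and 789.6, 1414 and 1304 with vehicle, which is 1.09 ± 0.05 (SE) on the log2 scale (limma adjusted p = 0.000236). Under fulvestrant it had 2220, 2548 and 2632 with E2 and 1754, 2080 and 2306 without. Each pair was higher with E2 while the groups overlapped, and the log2 fold change was 0.27 (95% interval 0.16 to 0.39, unadjusted p = 0.000291, limma adjusted p = 0.427). The interval left out both 0 and the size of the response without the antagonist.

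Col5a3, a fibrillar collagen chain (ENSMUSG00000004098, chromosome 9, 20770050 to 20815067), had the smallest p-value of all genes under fulvestrant. It had 3988, 1741 and 1773 normalized counts with E2 plus fulvestrant and 3046, 1447 and 1417 with fulvestrant, which is 0.33 ± 0.05 (SE) on the log2 scale (unadjusted p = 6.57e-05, limma adjusted p = 0.427). The pair differences were 0.39, 0.27 and 0.32, and replicate 1 was high in both groups. Without fulvestrant the values were 2300, 967.6 and 1257 with E2 against 1156, 660.3 and 681.6 with vehicle, a log2 fold change of 0.81. Gpx3, a secreted glutathione peroxidase, had 1099, 521.5 and 553.1 normalized counts with E2 plus fulvestrant and 852.6, 479.4 and 531.9 with fulvestrant, a log2 fold change of 0.18 against 1.10 without the antagonist. Aspn, an extracellular proteoglycan of collagen fibrils, had 40230, 4914 and 5124 against 41283, 4036 and 4142, with pair differences of -0.04, 0.28 and 0.31, so replicate 1 did not share the difference.

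With fulvestrant alone 20 of the 43 E2-raised genes had a lower fitted level than with vehicle (46.5%, against 48.5% of all genes) and 23 a higher one, with a median log2 difference of 0.11, so the split was close to that of all genes. That comparison uses the vehicle and fulvestrant samples again, and a gene chosen for a low vehicle level will tend to look higher elsewhere. Pgr, Slco2a1, Qpct, Agtr2 and Csrp2 were lower with fulvestrant alone, by log2 differences of -1.82, -0.51, -0.47, -0.60 and -0.92. Adh1, Aspn and Col5a3 were higher, by 0.84, 1.26 and 1.19, and so was Gpx3. The E2 effect on top of fulvestrant had a median of 0.095 over the 20 genes and 0.133 over the 23. Esr1 itself had 215.7, 87.1 and 76.4 normalized counts with E2 plus fulvestrant and 221.6, 100.8 and 76.2 with fulvestrant, below the 247.1 to 515.0 of vehicle, and its E2 effect was -0.08 (95% interval -0.39 to 0.23) under fulvestrant.

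The 43 genes that E2 raised had a median log2 fold change of 0.635 without fulvestrant and 0.113 with it, so the medians stood at 17.9%, and the median of all genes under fulvestrant was 0.00486. The first value is overstated because the genes were chosen by it, while the second comes from samples that took no part in the choice. The fitted E2 effect under fulvestrant was positive for 39 of the 43, where 52.7% of all genes were positive, and 12 had an unadjusted p-value under 0.05 in that direction, where 2.1% of all genes did. The 12 were Adh1, Adamts2, Aspn, Cd248, Cd34, Col5a3, Csrp2, Gpx3, Igfbp6, Mrgprf, Peg10 and Qpct. None of the 12 was called with all replicates. Without replicate 1, 4 of the 43 were called higher (9.3%, against 0.317% of all genes), namely Aspn, Col5a3, Mrgprf and Snord17, and 0 lower. Snord17, a snoRNA, had pair differences of -0.07, 0.05 and 1.00, so its call rests on replicate 3. For each of the 43 the effect was smaller with fulvestrant than without it, and the 95% interval under fulvestrant left out the value measured without it. The interval lay inside 1.2-fold for 16, inside 1.5-fold for 38 and inside 2-fold for 42, Pgr being the exception. The fitted effect itself passed 1.2-fold in 8.

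In single pairs the median over the 43 genes was 0.084, 0.129 and 0.133 for replicates 1, 2 and 3, and 25, 34 and 29 genes were positive. In 13 genes all 3 pairs were higher with E2, as in 12.1% of all genes under fulvestrant and 21.7% without it, and in 1, Raly, an RNA-binding protein whose exons overlap another gene by 4.5%, all were lower. The median without replicate 1 was 0.163. Across the 43 genes the remaining effect had a correlation of 0.35 with the effect without fulvestrant, and across all 57 called genes 0.65. Both are descriptions over genes of the same libraries.

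**Figure D2:**
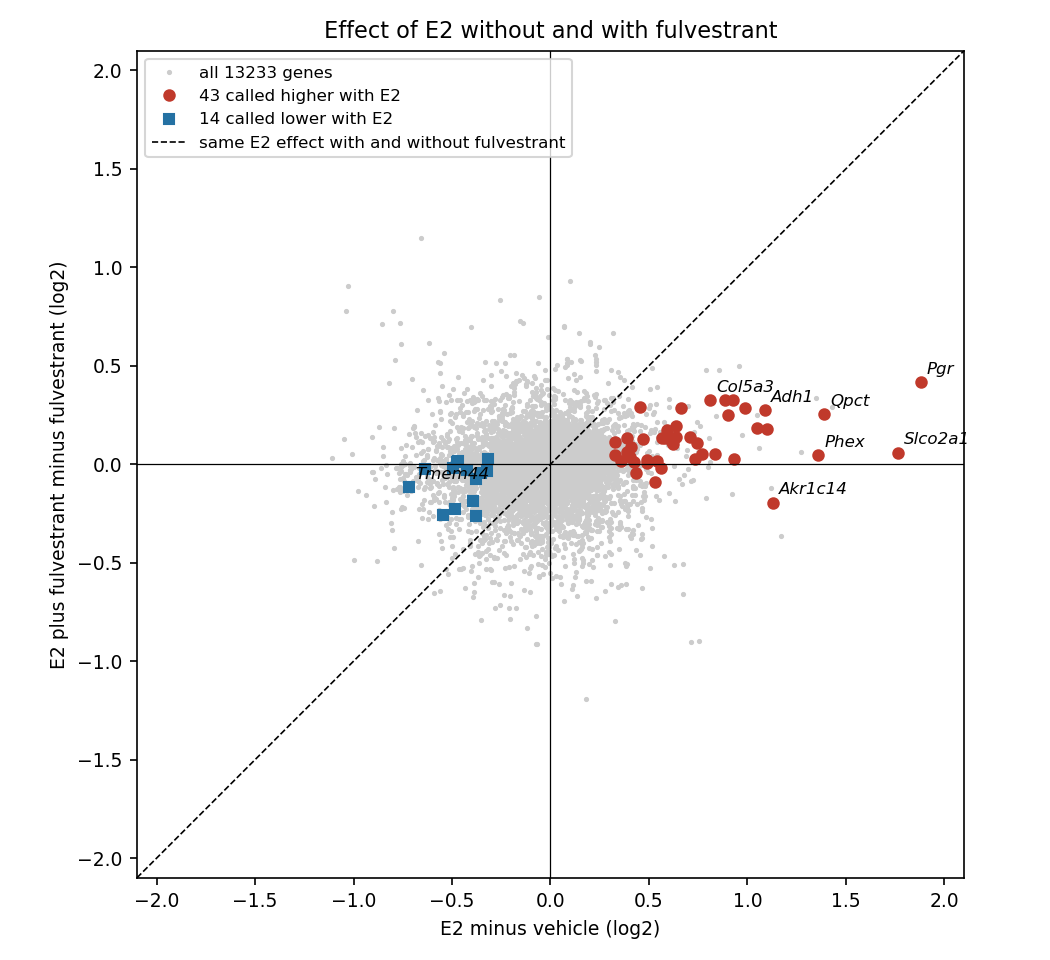
Log2 effect of E2 without fulvestrant (x axis) against the effect with fulvestrant (y axis) for 13233 genes, with the 43 genes called higher and the 14 called lower with E2 marked. The 43 genes lie between -0.194 and 0.419 on the y axis, each below the dashed line of equal effects, and 39 lie above 0.

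Promoters of 3 E2-raised genes are shown because their E2 effects under fulvestrant differ in size or precision: Pgr, whose interval was widest, Adh1, whose interval left out 0 though it was not called, and Dhrs9, a retinol dehydrogenase with log2 fold changes of 0.74 and 0.03. The last value averages pair differences of 0.45, -0.20 and -0.16. The letters are the 250 bases before the transcription start in RefSeq, build GRCm38.p6, written 5′ to 3′ on the strand of the gene. Capitals mark the estrogen response element half-site GGTCA on either strand, which appears as TGACC when it lies on the other strand.
Pgr, chr9:8899583-8899832, plus strand: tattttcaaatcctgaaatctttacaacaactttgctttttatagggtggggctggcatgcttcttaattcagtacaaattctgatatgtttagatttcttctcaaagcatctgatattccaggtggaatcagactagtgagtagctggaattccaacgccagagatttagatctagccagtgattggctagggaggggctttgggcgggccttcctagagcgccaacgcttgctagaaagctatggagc
Adh1, chr3:138277335-138277584, plus strand: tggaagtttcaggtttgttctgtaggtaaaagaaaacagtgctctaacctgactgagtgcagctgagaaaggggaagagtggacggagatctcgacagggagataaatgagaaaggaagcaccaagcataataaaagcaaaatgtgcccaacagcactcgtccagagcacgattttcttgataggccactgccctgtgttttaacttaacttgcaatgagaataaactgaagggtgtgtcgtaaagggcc
Dhrs9, chr2:69380212-69380461, plus strand: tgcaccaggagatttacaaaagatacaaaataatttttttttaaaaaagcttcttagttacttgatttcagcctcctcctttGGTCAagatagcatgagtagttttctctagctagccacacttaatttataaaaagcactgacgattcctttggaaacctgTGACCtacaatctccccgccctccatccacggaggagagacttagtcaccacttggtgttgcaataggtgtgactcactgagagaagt
The RefSeq start of Adh1 lies inside the GENCODE span of the gene given above. The window of Dhrs9 held 2 half-sites and those of Pgr and Adh1 none. Of the 43 raised genes 30 had a promoter in the table, and 7 of these (23.3%) held a half-site, against 36.7% of the 9439 listed genes with a promoter. Of the 14 lowered genes, 3 of 10 held one. The full palindromic estrogen response element, with no mismatch, was found for 0 of the 9439 genes, and the AP-1 letters TGANTCA in 3 of 30 raised genes (10.0%) and in 5.2% of all. These counts describe letters in one short window and say nothing of where the receptor was bound.

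The 14 genes that E2 lowered had a median log2 fold change of -0.446 without fulvestrant and -0.0386 with it, a ratio of medians of 8.67%. The median under fulvestrant lay further below 0 without replicate 1, as given with the dependence on processing. The effect under fulvestrant was negative in 11 of 14, and only Nedd9, a scaffold of cell adhesion, had an unadjusted p-value under 0.05 in that direction, with a log2 fold change of -0.19. Without replicate 1, 4 of the 14 were called lower (28.6%, against 0.793% of all genes), namely Ccn2 at -0.60, Ahr at -0.44, Col8a2 at -0.42 and Nedd9 at -0.27, and 0 higher. With all replicates the 95% interval left out the value without fulvestrant for 13 of the 14, the exception being Ccn2, a matricellular growth factor at -0.38 without fulvestrant and -0.26 with it. The latter averages pair differences of 0.41, -0.65 and -0.56. Ahr, the aryl hydrocarbon receptor, had 340.7, 351.0 and 313.0 normalized counts with E2 plus fulvestrant and 315.0, 441.4 and 460.6 with fulvestrant, so replicates 2 and 3 were lower with E2 and replicate 1 was not. Its log2 fold change was -0.26 (95% interval -0.53 to 0.02) against -0.54 without fulvestrant. Cyp1b1, which hydroxylates E2, and the inhibitors of differentiation Id2 and Id3 had log2 fold changes of 0.02, -0.02 and -0.03 under fulvestrant against -0.47, -0.50 and -0.42 without it.

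The lowered genes also differed between pairs. Their median was 0.163 in replicate 1, -0.208 in replicate 2 and -0.19 in replicate 3, so the small median over all pairs averages opposite directions. With fulvestrant alone 12 of the 14 had a lower fitted level than with vehicle, with a median log2 difference of -0.923, where 48.5% of all genes were lower. These genes were chosen for a high level in the same vehicle samples, which by itself lowers that difference. Npnt, an integrin ligand of basement membranes, had 363.4, 264.0 and 278.8 normalized counts with E2 plus fulvestrant and 363.9, 317.4 and 243.3 with fulvestrant, against 4704, 685.5 and 688.3 with vehicle.

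**Figure D3:**
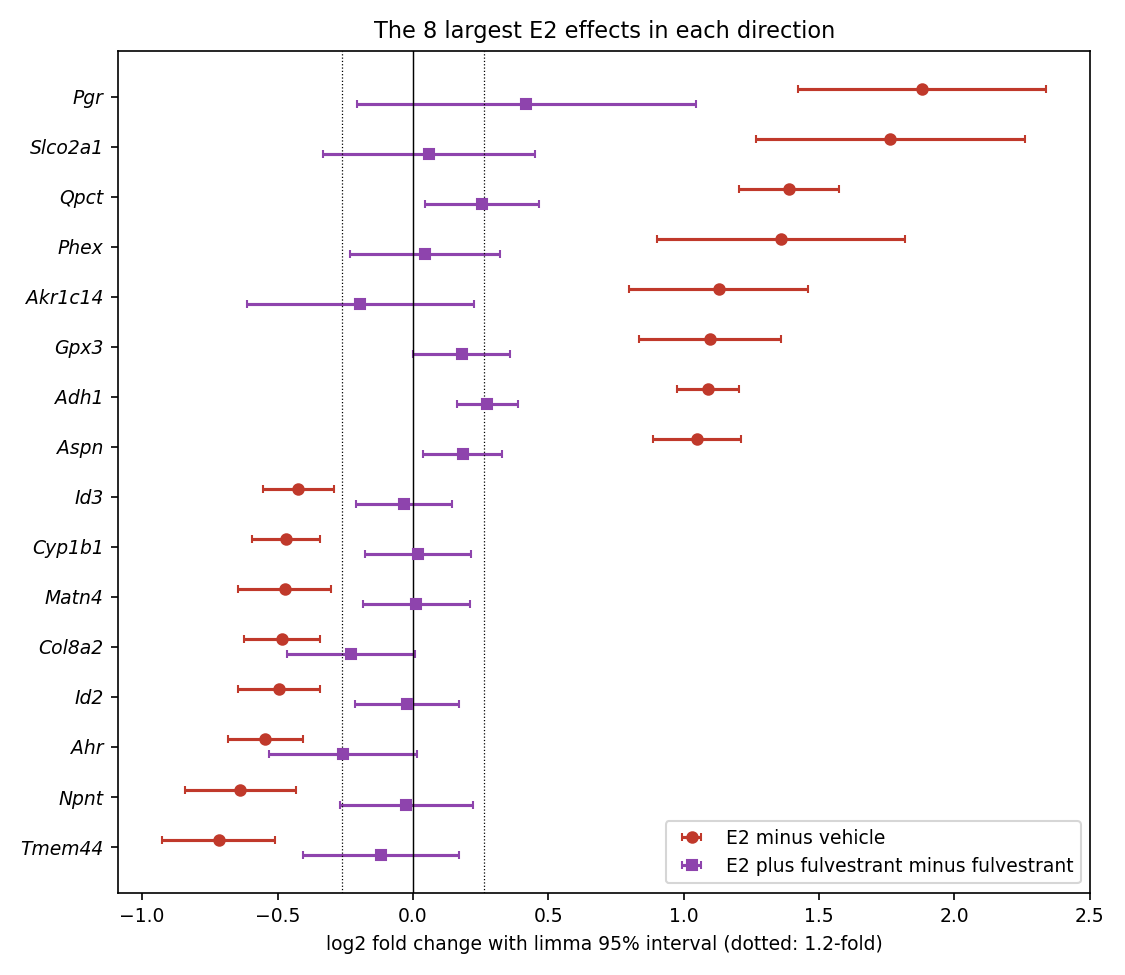
Log2 fold change with its limma 95% interval for the 8 largest E2 effects in each direction among called genes, without fulvestrant (circles) and with it (squares). The squares of Adh1, Aspn, Gpx3 and Qpct have intervals above 0, and each square is nearer 0 than the circle of its gene.

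Choosing genes and reading the response in the same samples inflates the response, so both E2 effects were also read in a replicate that took no part in the choice. The 100 genes with the smallest p-values for a rise with E2 in 2 replicates of E2 and vehicle had a median rise of 0.329, 0.475 and 0.385 in the replicate left out (1, 2 and 3). The same genes had a median E2 effect of 0.121, 0.0731 and 0.125 under fulvestrant in that replicate, which is 36.8%, 15.4% and 32.5% of the rise without it. Of the 100 genes, 74, 65 and 71 were higher with E2 under fulvestrant, where 49.4%, 50.8% and 51.1% of all genes were. The 100 genes chosen for a fall had medians of -0.134, -0.121 and -0.253 without fulvestrant and -0.0623, -0.0728 and 0.00989 with it, or 46.5%, 60.2% and -3.91%, and 64, 65 and 47 of them were lower with E2 under fulvestrant. The remaining share was thus larger than the 17.9% above in 2 of 3 replicates for raised genes. For lowered genes it was larger than the 8.67% found for the 14 called genes in replicates 1 and 2 and of the other sign in replicate 3.

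The difference between the 2 E2 effects was tested in all 12 samples with the replicate number as block, and 0 of 13233 genes were called (0%). Limma gave 501 genes (3.79%) an unadjusted p-value under 0.05, 1.71% of all genes toward a higher E2 effect under fulvestrant, where 48.7% of all differences were positive, and the smallest adjusted p-value was 0.237, for Aspn and Agtr2. Among the 43 raised genes 29 had an unadjusted p-value under 0.05, each toward a smaller E2 effect under fulvestrant, and among the 14 lowered genes 2 did, Id2 and Trib2. These genes were chosen by the E2 effect without fulvestrant, which the difference subtracts in the same samples. The choice by itself favors small p-values in that direction, so the counts of 29 and 2 are no separate evidence. Without replicate 1 the test called 11 genes, and without replicate 2 or 3 it called 0. With a block for each pair instead, a fit added after the data were seen, 6 genes were called. This fit also uses the E2 and vehicle samples that chose the 43, and each of the 6 was E2-raised with a smaller effect under fulvestrant. These were Adh1 (limma adjusted p = 0.00147), Qpct (0.0107), Aspn (0.0251), Stard10 (0.0251), Agtr2 (0.0379) and Plod2 (0.0388). Stard10, a lipid transfer protein, had log2 fold changes of 0.77 and 0.05, and Plod2, a lysyl hydroxylase that shapes collagen crosslinks, 0.84 and 0.05. Palld, an actin-binding protein, was among the 5 smallest p-values in the first fit, with 0.42 and 0.01.

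Of the genes whose difference went the other way, with a higher value for E2 under fulvestrant than without it, Dok3, an adaptor protein, had 60.1, 40.3 and 60.3 normalized counts with E2 plus fulvestrant and 38.0, 28.1 and 25.9 with fulvestrant. Its log2 fold change was 0.78 (unadjusted p = 0.00640, limma adjusted p = 0.998) against -0.80 without fulvestrant. Arhgap20 had 0.25 against -0.10, Srrm4, a splicing factor, 0.17 against -0.59, and the pseudogene Rps3a2 and the noncoding Gm26645 had 0.14 and 0.53 against -0.40 and -0.79. Rps3a2 is a processed copy of a ribosomal protein gene, so its reads are uncertain. None of these was called.

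The genes with the smallest p-values under fulvestrant in each direction included genes called with E2 alone, such as Col5a3 and Cd248, and genes called in neither comparison. Cd248, endosialin of fibroblasts and itself E2-raised, had 5716, 6562 and 6759 normalized counts with E2 plus fulvestrant and 4377, 5791 and 5447 with fulvestrant, a log2 fold change of 0.29 against 0.46 without fulvestrant. Rtl3, a gene derived from a retrotransposon, had 327.0, 357.5 and 304.0 against 247.6, 192.6 and 184.9, and the groups did not overlap (log2 fold change 0.67, limma adjusted p = 0.427). Rassf2, a Ras-association protein, and Cd55, a complement inhibitor, had 0.34 and 0.29. On the lower side Col12a1, a collagen that sits on fibrils, had 35252, 5446 and 5147 normalized counts with E2 plus fulvestrant against 45554, 6677 and 6005 with fulvestrant, or -0.30 on the log2 scale (limma adjusted p = 0.427). Mylk, myosin light chain kinase, had 890.3, 673.7 and 707.8 against 1287, 868.0 and 830.3, or -0.38 on the log2 scale (limma adjusted p = 0.555). Ppp1r26, Tmtc1 and the microRNA gene Mir1193 had -0.60, -0.26 and -1.19. Col12a1 and Mylk had -0.36 and -0.31 in E2 against vehicle, which did not pass the threshold there.

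Gene lists showed no called member under fulvestrant with all replicates. Without replicate 1 the calls were 1 higher and 2 lower of 28 collagens and their enzymes, 4 lower of 34 proliferation genes, 1 higher and 4 lower of 24 TGF-beta response genes, 2 lower of 28 known estrogen targets and 2 lower of 12 chemokines and cytokines. There was 1 lower call each among 23 ERK feedback genes (Dusp5), 19 genes of the unfolded protein and integrated stress response and 7 fibroblast markers (Thy1). In comparison, 0.317% of all genes were called higher and 0.793% lower. Of 28 collagens and collagen-processing enzymes, 20 had a positive E2 effect, with a median of 0.033 beside 0.005 over all genes. An unadjusted p-value under 0.05 was found upward in 6 and downward in 1, Col12a1, where 2.1% and 1.8% of all genes had one. Those upward were Col5a3, Loxl2, Col3a1, Plod1, P4ha2 and Col6a3. Loxl2, a lysyl oxidase, had a log2 fold change of 0.27 and Col3a1, a main fibrillar collagen of muscle stroma, 0.23, with pairs of 0.21, 0.23 and 0.25. The median for the 28 genes without replicate 1 was 0.041. Col1a1 and Col1a2, the chains of type I collagen, had 0.03 and 0.04.

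Of 34 proliferation genes, 23 had a negative fitted E2 effect, and 4 had an unadjusted p-value under 0.05 downward and 0 upward. Plk1, a mitotic kinase, had 56.1, 48.6 and 64.8 normalized counts with E2 plus fulvestrant and 85.8, 73.6 and 102.2 with fulvestrant, groups that did not overlap (log2 fold change -0.61, limma adjusted p = 0.998). Mcm7, a subunit of the replicative helicase, Ube2c, which acts in mitotic exit, and Kif11, a spindle motor, had -0.21, -0.57 and -0.43. The list median was 0.207 in replicate 1, -0.272 in replicate 2 and -0.206 in replicate 3, and 23, 4 and 5 of the 34 genes were positive in these pairs. The same 34 genes had a median of 0.078 in E2 against vehicle.

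Of the 28 known estrogen targets listed, 10 were positive and 18 negative under fulvestrant with a median of -0.011. An unadjusted p-value under 0.05 was found in 3, Fhl2, Cited2 and Ier3, all downward, where 1.8% of all genes had one downward. Without fulvestrant 2 of the 28 were called, Pgr upward and Cyp1b1 downward, where 0.325% of all genes were called higher and 0.106% lower. Igf1, a growth factor, had log2 fold changes of 0.19 without and 0.01 with fulvestrant, Cxcl12, a chemokine, -0.25 and -0.01, and Nrip1, a corepressor, 0.07 and 0.10. Greb1, Esr2 and Gper1 were not analysed here. Of 17 ESR1 cofactors 12 were positive with a median of 0.031, which averages pair medians of -0.09, 0.061 and 0.184 (2, 13 and 16 positive) and was 0.114 without replicate 1, and Crebbp, a histone acetyltransferase, had 0.13. Lists for the rapid routes of estrogen signaling, 23 ERK feedback genes and 16 cAMP-responsive genes, had medians of 0.006 and 0.013. In E2 against vehicle their medians were 0.02 and 0.034, so at 48 h there was little E2 response whose remainder could be read. With fulvestrant alone against vehicle the medians were 0.387 and 0.426, where that of all genes was 0.007. For E2 on top of fulvestrant, Ier3 of the ERK list was at -0.14, and the list median was 0.252 in replicate 1, -0.137 in replicate 2 and -0.051 in replicate 3. In the cAMP list, Rgs2, a regulator of G protein signaling, had -0.29 and Sik1, a salt-inducible kinase, 0.12.

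The study's own genes that fulvestrant lowered in the presence of E2 were chosen on samples that include E2 plus fulvestrant and are not independent of it. Of 57 listed, 28 were positive and 29 negative, with a median of -0.002. Pair medians were -0.074, 0.029 and 0.06, with 21, 35 and 40 positive, and the median without replicate 1 was 0.041. In E2 against vehicle the same 57 had a median of 0.01, with 30 positive. There 3 were called higher and 1 lower, against 0.325% and 0.106% of all genes. With fulvestrant alone against vehicle their median was -0.518. As a list they thus gave little E2 response here whose remainder could be read. Ncam1, a cell adhesion molecule of this list, had a log2 fold change of -0.33 under fulvestrant. It was 1 of 2 genes among the 57 called lower without replicate 1, where 0.793% of all genes were. In the other list of the study, 1 of 32 was called higher, where 0.317% of all genes were. Of 32 genes the study chose in the other direction, 24 were positive with a median of 0.034, and Arhgap24 had 0.21.

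The 15 contractile genes had a median of 0.006 in replicate 1, where 8 were positive, and of -0.1 and -0.057 in replicates 2 and 3, where 3 and 6 were. Acta2, smooth muscle actin and a marker of myofibroblasts (chromosome 19, 34241090 to 34255590), had 3466, 2504 and 2671 normalized counts with E2 plus fulvestrant and 3058, 4216 and 4448 with fulvestrant. Replicate 1 was higher with E2 and replicates 2 and 3 were lower, with pair differences of 0.18, -0.75 and -0.74. The log2 fold change was -0.44 (95% interval -0.76 to -0.11, unadjusted p = 0.0131, limma adjusted p = 0.998) with all pairs and -0.74 without replicate 1. Of 15 contractile genes 12 were negative, and 4 were called lower without replicate 1 (0.793% of all genes were called lower then). Tagln, a smooth muscle actin-binding protein, had pair differences of 0.35, -0.70 and -0.39, and Myl9, a myosin light chain, 0.14, -0.57 and -0.30. In E2 against vehicle Acta2, Tagln and Myl9 had log2 fold changes of 0.15, 0.15 and 0.21, none of them called.

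Without replicate 1, 85 of the 105 genes called lower had a positive difference in replicate 1, where 49.4% of all genes did, and 21 of the 42 called higher had a negative one, close to the share of all genes. Of the 104 lower genes with a symbol, 19 were processed pseudogenes (18.3%, against 5.93% of all genes) and 12 were mitochondrial rRNAs, snoRNAs, scaRNAs, ribozymes or miscellaneous RNAs (11.5%, against 0.639%). Of the 41 higher genes with a symbol, 6 (14.6%) and 1 (2.44%) were of these 2 kinds. Among the lower genes, mt-Rnr2, the large mitochondrial rRNA, also chosen after its values were seen, had pair differences of 0.74, -0.43 and -0.93. Fulvestrant replicate 3, with the fewest reads, also stood apart on the second principal component, at -16.1 against -4.7 to 8.2 in the other 5 samples, and the part of RNA or library quality in these calls was not tested. The lower genes, named after their values were seen, included Ccn5 and Spp1, with pair differences of 0.75, -1.02 and -0.80 for Ccn5 and 0.77, -0.75 and -0.72 for Spp1. The higher genes included Pi16, which marks a fibroblast subset, with -0.13, 0.67 and 0.63, and Fst, an activin antagonist, with 0.01, 0.49 and 0.41. When replicate 1 was left out, 4 genes were called in both E2 effects. In that setting 0.317% of all genes were called higher and 0.793% lower under fulvestrant, and the calls without fulvestrant are counted above. With 1 residual degree of freedom per gene, these p-values rest on the variance that limma takes from all genes, and whether replicate 1 differs by culture, animal or day was not tested.

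**Figure D4:**
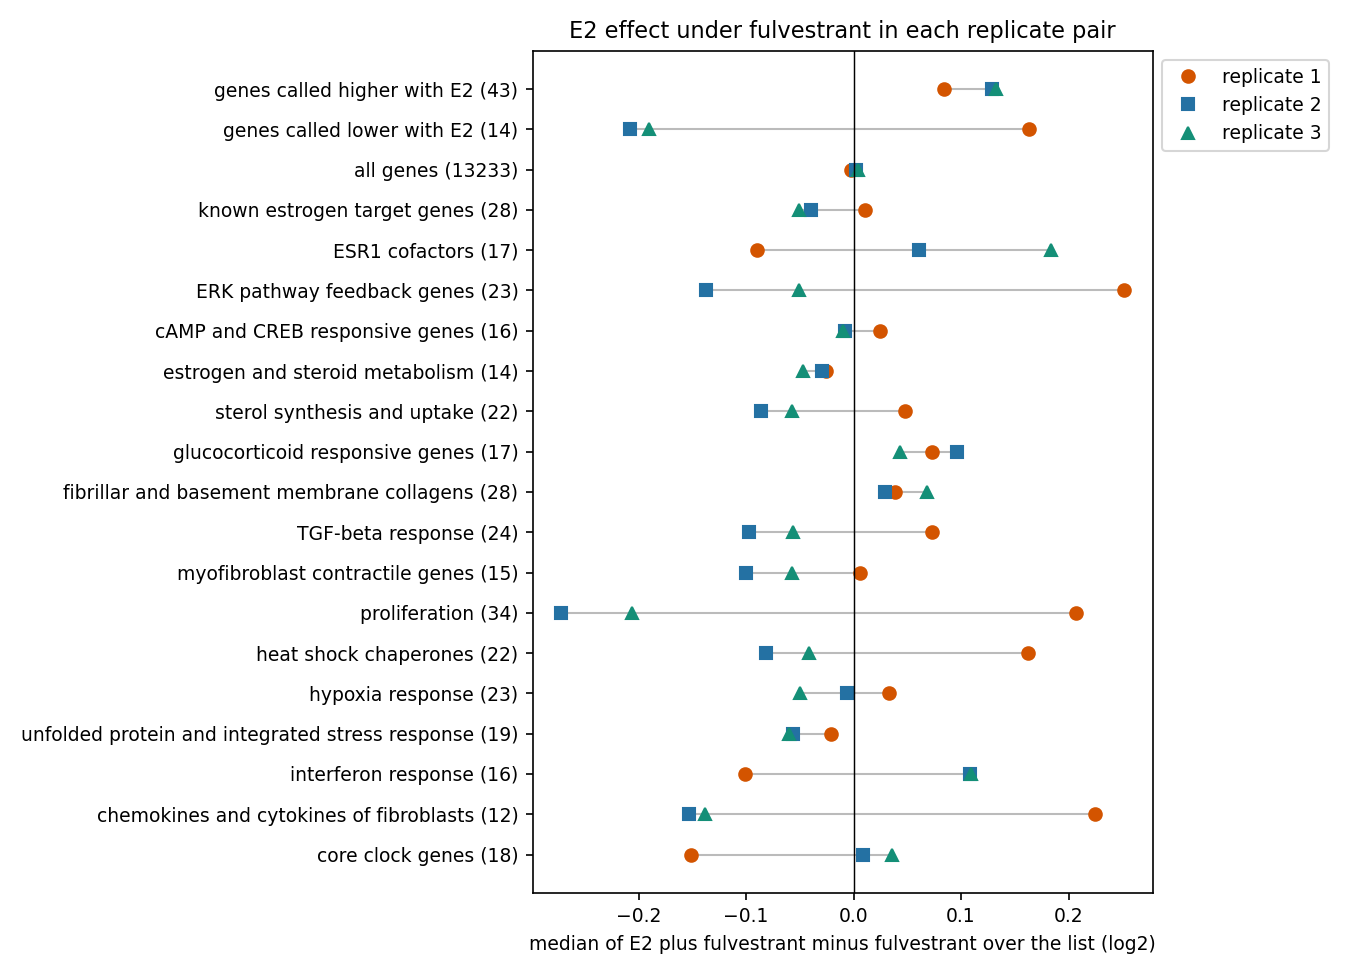
Median log2 difference, E2 plus fulvestrant minus fulvestrant, over each gene list in replicate pairs 1, 2 and 3, with the number of genes in brackets. The 43 genes that E2 raised had a median above 0 in each pair, while the 14 lowered genes and the proliferation list had replicate 1 above 0 and replicates 2 and 3 below it.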

How the data were processed

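RNA was sequenced after ribosomal RNA depletion in 12 samples (4 groups of 3). Per the submitters' processing notes the tools were Trimmomatic 0.39, STAR 2.5.2, HTSeq 0.13.5 and DESeq2 1.37 with build mm10. The deposited signal values are normalized counts that the authors made by dividing gene counts by size factors (median of ratios), after removing low counts. Dividing out 1 factor per sample turned all values into whole reads (100% within 1e-06), the factors lay within 1.39% of a recomputed median of ratios, and the smallest value in any sample was 10 reads. Filtering in this way leaves out genes silent in a sample. Reads on listed genes ranged from 18827792 to 44040507 over the 12 samples.

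The comparison of E2 plus fulvestrant with fulvestrant, and of E2 with vehicle, was fitted in limma 3.58.1 (R 4.3.3) on log2(normalized count + 1) with the replicate number as block, a variance trend and no further filter. Fold changes are on that scale, which understates those of low genes. The difference of both effects was fitted in all 12 samples. P-values were Benjamini-Hochberg adjusted over 13233 genes, and intervals are limma's 95% intervals. The steps were checked on simulated data. Tables and plots were made with Python 3.11.15, pandas 2.3.3, numpy 2.4.6 and matplotlib 3.10.9. Deviations from the group mean were correlated between samples of the same number (r = 0.92, 0.80 and 0.78 for replicates 1, 2 and 3), so the numbers were used as pairs. The highest r with another number was -0.83, 0.76 and 0.79, so replicates 2 and 3 were not told apart.

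Named genes were those called, or else the 5 with the smallest p-value in each direction, under fulvestrant; genes called in both E2 effects; the 8 largest called effects of E2 against vehicle in each direction; the 5 smallest p-values for the difference in each direction; the called or smallest-p member of each gene list; and 8 estrogen-related genes. Others were named as members of a count, or are stated to be chosen after their values were seen. Members and lists were chosen with earlier results of these data known. Alternatives covered the pseudocount, filters, block, samples fitted, variance trend, scaling, call rule and each replicate left out.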

Additional observations from a re-analysis of the deposited data

How the results depend on the processing

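Without replicates 1, 2 or 3 in turn, genes called under fulvestrant ranged from 0 to 42 higher and from 0 to 105 lower, the largest counts being without replicate 1. An unadjusted p-value under 0.05 gave 278 and 238. For E2 against vehicle the 43 higher and 14 lower calls became 0 and 0 with no replicate block, 0 and 0 with no variance trend and 10 and 0 with all 12 samples in one fit. Scaling by the total reads on listed genes, added after the data were seen, gave 27 higher, and leaving out a replicate gave 6 to 165 higher and 0 to 114 lower. The causes were not tested. The difference of both effects ranged from 0 to 11 calls without a replicate and was 6 with a block for each pair, also added after the data were seen. The median effect under fulvestrant over the E2-raised genes, 0.113, was 0.163, 0.0968 and 0.118 without replicates 1, 2 and 3, and over the E2-lowered genes, -0.0386, it was -0.16, -0.00328 and -0.00951. For other sets, of 100 genes chosen in 2 replicates and read only in the one left out, the medians ranged from 0.0731 to 0.125 and from -0.0728 to 0.00989. Pairing by the replicate block did not change the count of 0 under fulvestrant. Of the values of the 61 named genes under alternatives, 759 kept their side of the threshold and shifted by less than the SD of that gene's pair differences. A further 4 kept their side but shifted by more, 12 passed the threshold only without replicate 1, and 0 reversed. Count-based tests (edgeR, DESeq2) and TMM scaling were not run.

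With 3 samples per group, an effect under about 0.163 on the log2 scale, the median half-width of the unadjusted interval, could not be told from 0 for a typical gene. Low genes such as Pgr had wider intervals. A call asked for more than an interval without 0, and Col5a3 at 0.33 was not called (limma adjusted p = 0.427).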

Other observations

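Lists outside estrogen signaling also held no called gene under fulvestrant with all replicates. Of 18 core clock genes, 14 had a negative E2 effect, with 0 of 18 positive in replicate 1 and 10 and 11 positive in replicates 2 and 3. Bhlhe41, a clock repressor, had a log2 fold change of -0.14. Of 22 sterol synthesis and uptake genes 16 were negative, with medians of 0.048, -0.086 and -0.057 and 14, 4 and 7 positive genes in replicates 1, 2 and 3, and Sqle and Lss, enzymes that form the sterol ring system, had -0.19 and -0.20. Of 17 glucocorticoid-responsive genes 13 were positive with a median of 0.076, among them Cdkn1c, a cell cycle inhibitor, with 0.11. Heat shock chaperones had medians of 0.162, -0.081 and -0.041 in replicates 1, 2 and 3, and interferon response genes -0.101, 0.108 and 0.109. Tek, an endothelial receptor, had 83.7, 259.4 and 243.7 normalized counts with E2 plus fulvestrant and 70.6, 192.6 and 181.6 with fulvestrant, a log2 fold change of 0.36.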
